A study of Homo sapiens with 6 samples.

Results

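Genes of the extracellular matrix and of mesenchymal cells were followed in an esophageal squamous cancer cell line and in its radioresistant derivative. The group was a fixed list of 48 human genes: collagens, matrix glycoproteins, crosslinking enzymes, matrix proteases with their inhibitors, and proteins and transcription factors used as signs of a mesenchymal state. Members were found by gene symbol in the platform annotation, of 18665 genes with a named probe on the array. A named probe was found for 47 of the 48, and COL17A1 was named by none. TE13R is a line that was raised from the parental TE13 by repeated fractionated irradiation, so each group is 1 line, and the parental cells are the only reference. RNA from TE13R at 0, 8 and 24 h after irradiation and from TE13 at the same times was labelled with biotin and read on single-channel Illumina Human-6 V3 beadchips, with 1 array for each line and time. Both lines grew in RPMI medium with fetal bovine serum, and were irradiated with a linear accelerator at a dose that the sources used here do not give for the arrays. As to replicates, the methods describe profiling in triplicate, but the labels carry 1 array per line and time and no replicate number. Whether cells at 0 h were taken before or right after irradiation is not stated for the arrays, so a contrast with 0 h is a change from that sampling, whichever it was.

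Collagens are built from chains that assemble as triple helices. Fibrillar collagens (types I, III and V) bear the tension of connective tissue, type IV forms the network of basement membranes, and type VII anchors squamous epithelium to the tissue beneath it. Carcinoma cells can take on part of this program themselves in epithelial-mesenchymal transition, in which transcription factors of the SNAI, ZEB and TWIST families repress epithelial genes while vimentin, N-cadherin, fibronectin and actin-binding proteins appear. Matrix metalloproteinases (MMPs) and the urokinase system cut matrix proteins, and TIMPs and some serpins hold them back.

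The deposited values are background-subtracted intensities on a linear scale. A gene was taken as measured where its brightest probe exceeded a detection limit of about 20.2, set from the values below 0 of each array, on at least 1 array, and 37.3% of all probes exceeded it on each array. Ranked over all probes, the 0 h arrays of the 2 lines correlated at 0.895, and all other pairs of arrays at 0.819 to 0.853. The 0 h arrays were thus most like each other. Their correlations with the later arrays (0.819 to 0.843) overlapped those among the later arrays (0.832 to 0.853). All 7 squamous epithelial markers with a probe were measured (KRT5, KRT14, SFN, PKP1, DSG3, DSC3 and PERP). Of the 7 fibroblast markers outside the list, DCN, THY1, POSTN and FAP were not above the limit on any array, and the summed level of all 7 was 144 to 306 in TE13R and 75 to 302 in TE13. The sums of the endothelial markers were 203 to 985 in TE13R and 77 to 655 in TE13, with CDH5 and KDR below the limit throughout, and those of the leukocyte markers were 17 to 104 in TE13R and 38 to 83 in TE13, with PTPRC and CD3E below it.

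Of the 48 genes, 37 were measured, 23 of them on all 6 arrays and 14 on 1 to 5. In 10 genes no array exceeded the limit: COL1A2, COL3A1 and COL6A3, fibronectin (FN1), SPARC, the crosslinking enzymes LOXL1 and LOXL2, and the transcription factors ZEB1, ZEB2 and SNAI1. Their absence from the readout concerns these probes and this limit, and does not show that the RNA was absent. Several genes that define a mesenchymal cell were thus not measured in either line, and the list is a functional grouping here and not a cell state. An intensity depends on the probe, so no gene's level was set against another's.

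**Figure D1:**
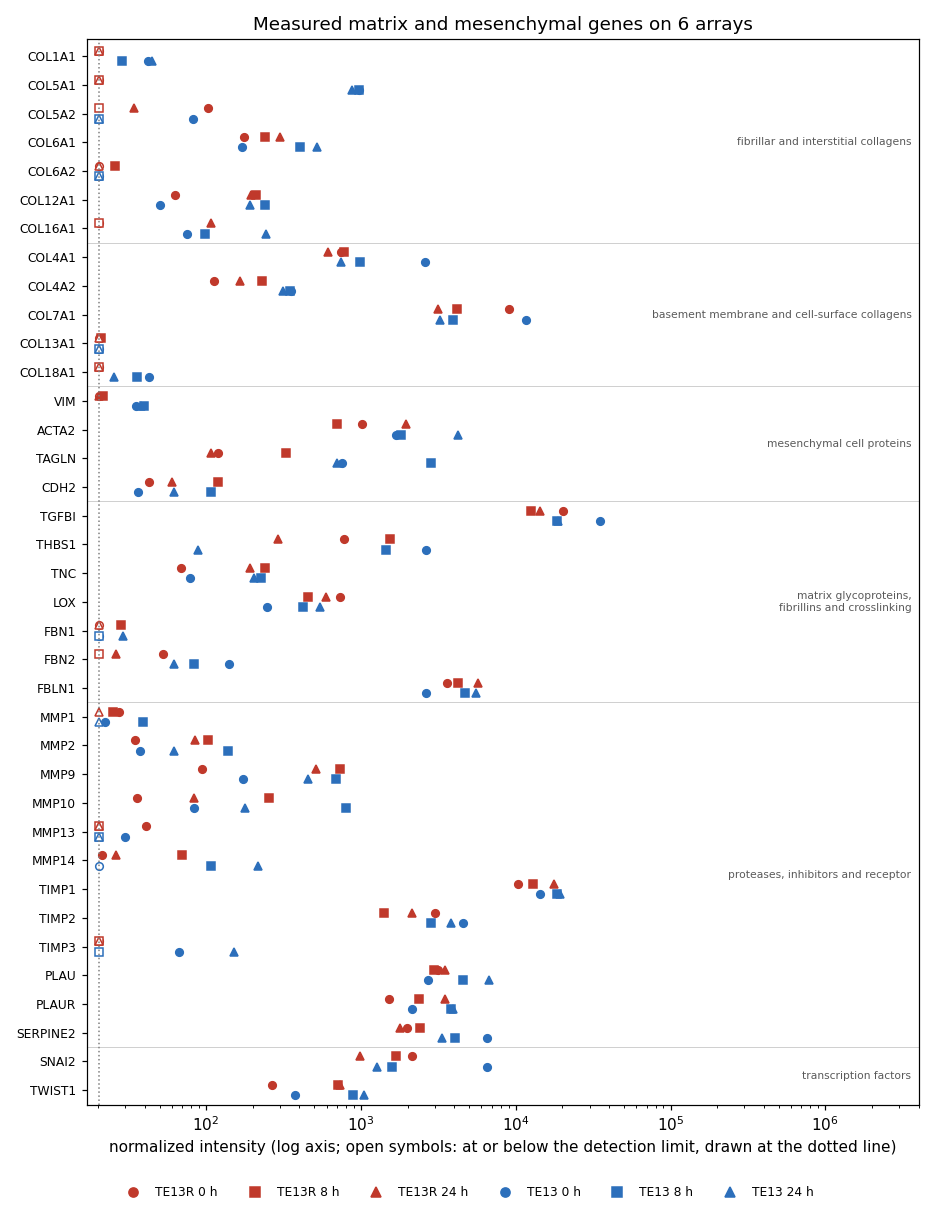
Normalized intensity (log axis) of the 37 measured genes on the 6 arrays, grouped by role, with TE13R in red above TE13 in blue, and circles, squares and triangles for 0, 8 and 24 h. Open symbols lie at or below the detection limit of about 20.2 and are drawn at it. COL5A1 was below the limit in all 3 TE13R arrays and between 876 and 970 in TE13.

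To compare the lines, 12783 genes were fitted together in limma with terms for line and time, the 3 times serving as the repeat, and 35 of the 48 genes were among them. The outcome was one-sided for the matrix and mesenchymal genes, a list chosen with earlier results of these data known. Between TE13R and TE13, 8 of the 35 were called lower (adjusted p under 0.05), 0 were called higher and 27 were not called, while 2.45% of all genes tested were called lower and 2.61% higher. By unadjusted p under 0.05 in limma, 17 of the 35 and 2310 of all genes passed. The genes called lower were COL5A1, COL16A1, TAGLN, ACTA2, TGFBI, MMP10, TIMP2 and SERPINE2. COL5A1 passed the filter on dim probes through the TE13 arrays only. The median log2 difference of the 35 was -0.45, against 0.01 over all genes tested, and 29 of them lay below 0, against 48.3% of all genes. Taken time by time, the median stayed near that value (-0.49 for the 0 h arrays, -0.51 for the 8 h arrays and -0.50 for the 24 h arrays).

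At all 3 times TE13R was the lower line for 17 of the 35 genes and the higher line for 2 (COL5A2 and LOX), where 18.4% and 21.2% of all genes tested kept to those directions. In 8 genes the highest TE13R array lay below the lowest TE13 array, which held for 3.30% of all genes. These were COL1A1, COL4A2, COL5A1, COL18A1, VIM, TAGLN, FBN2 and SERPINE2. A difference of at least 2-fold at every time, on the scale of log2(intensity + 16), was found for COL5A1, COL16A1 and TAGLN, and in 1.33% of all genes in that direction. COL5A1 stands in each of these counts after passing the filter through the TE13 arrays only. The share of cells with a transcript and its level per cell cannot be told apart in such bulk RNA. Since each line is 1 culture per time, the p-values carry no spread between repeat cultures. They rest on how far a gene's line difference varied between the times and on a variance shared between genes in limma.

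**Figure D2:**
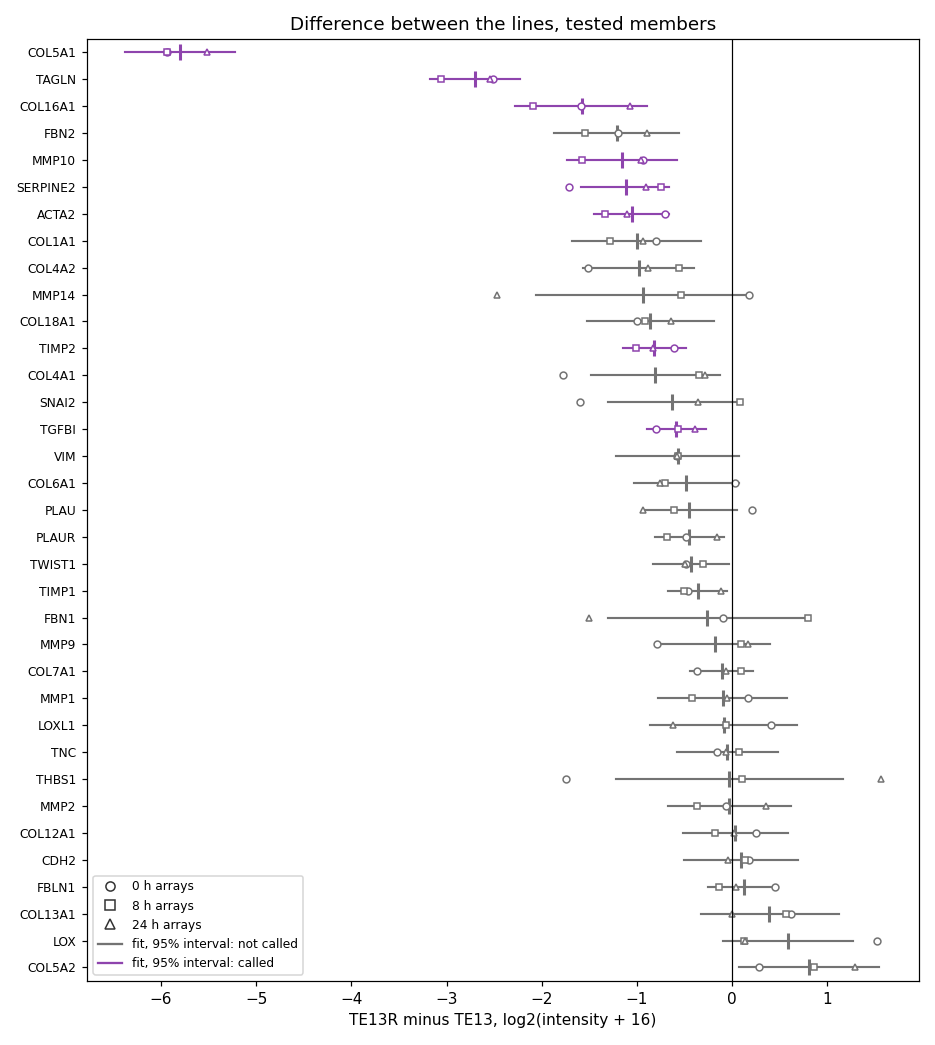
Difference between the lines (TE13R minus TE13, log2 of intensity + 16) for the 35 tested genes, with open symbols for each time point and a bar for the fitted value with its 95% interval. The 8 called genes are purple and all lie left of 0, led by COL5A1 at -5.80 and TAGLN at -2.70. COL5A1 was at the noise in TE13R, so the size of its difference depends on the 16 added.

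Among the fibrillar and interstitial collagens, COL5A1 encodes the main chain of type V collagen, which is built into type I fibrils and sets their width. It read -2.1, -2.0 and 3.5 at 0, 8 and 24 h in TE13R, against 970, 968 and 876 in TE13. All TE13R arrays were thus at the noise, and the TE13 arrays hardly differed among themselves. TE13R was at least 46.4-fold lower (limma, log2 difference -5.80 with SE 0.25, adjusted p = 0.00013), and no change after irradiation was called (24 h against 0 h, 0.07, adjusted p = 0.87). The gene entered the test through the TE13 arrays only, and TE13R values below 0 were taken as 0. Its SE and p-value are therefore not free of that selection and of the floor, and the intensities are the plainer description. The 250 bases before a COL5A1 start site are shown, since this gene differed most between the lines; they span chr9:134641553-134641802 on the + strand (RefSeq, GRCh38.p14). They hold 74% G and C.
COL5A1: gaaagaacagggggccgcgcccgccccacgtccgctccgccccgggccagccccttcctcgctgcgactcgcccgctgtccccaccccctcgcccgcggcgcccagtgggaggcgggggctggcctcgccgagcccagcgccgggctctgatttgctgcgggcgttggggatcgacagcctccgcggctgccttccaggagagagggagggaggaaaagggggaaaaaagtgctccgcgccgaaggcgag

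No base is in capitals in it, because neither motif searched on both strands, TGANTCA (bound by AP-1 factors) and TATAAA (the TATA box), was found. These letters are a description of the sequence and say nothing of which factors act there. The table lists 2 start sites for the gene, of which the first was used.

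COL16A1, a collagen associated with fibrils, was also lower in TE13R. It read 14.3, 10.8 and 108 in TE13R, against 75.1, 98.1 and 244 in TE13. Only the 24 h array of TE13R exceeded the limit, and it lay above the TE13 values at 0 and 8 h, so the lines overlapped across time but not within a time. The log2 difference was -1.58 (SE 0.30, adjusted p = 0.028 in limma). COL1A1, a chain of type I collagen, read 17.5, 2.4 and 15.6 in TE13R and 42.3, 28.8 and 44.4 in TE13, at least 1.87-fold lower in TE13R, and did not pass the test (adjusted p = 0.11 in limma). Its partner chain COL1A2 was not measured.

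The partner of COL5A1 in type V collagen, COL5A2, was not called between the lines. It read 103, 13.1 and 34.1 in TE13R, against 82.0, -2.0 and 4.5 in TE13, with a log2 difference of 0.81 (95% interval 0.07 to 1.54, adjusted p = 0.23 in limma). COL6A1, of the beaded filaments of type VI collagen, and COL12A1, which binds fibrils, had log2 differences of -0.48 (95% interval -1.03 to 0.07) and 0.03 (95% interval -0.52 to 0.59), and neither was called. COL6A2 exceeded the limit on 1 TE13R array only and was not tested.

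None of the 5 measured basement membrane and cell-surface collagens was called between the lines, although 3 of them were lower in TE13R at every time. COL4A1 and COL4A2 encode the chains of the common type IV collagen and lie head to head on chromosome 13, with start sites 127 bases apart. COL4A1 read 739, 775 and 609 in TE13R, against 2575, 993 and 746 in TE13. COL4A2 read 113, 230 and 165 in TE13R, against 351, 346 and 316 in TE13. For COL4A1 the gap was thus mostly at 0 h, with log2 differences of -1.78, -0.35 and -0.29 by time, while for COL4A2 it was -1.51, -0.56 and -0.88 and the lines did not overlap. The fitted differences were -0.81 for COL4A1 (adjusted p = 0.20 in limma) and -0.98 for COL4A2 (adjusted p = 0.0747 in limma). Without the 24 h arrays COL4A1 was called (-1.07, adjusted p = 0.0492 in limma), in a fit that averages the differences of -1.78 and -0.35. The 126 bases between the start sites, chr13:110307158-110307283 on the + strand (RefSeq, GRCh38.p14), are printed because the pair shares them as its upstream sequence, with COL4A1 read to the left and COL4A2 to the right. They hold 80% G and C and neither TGANTCA nor TATAAA.
COL4A1-COL4A2: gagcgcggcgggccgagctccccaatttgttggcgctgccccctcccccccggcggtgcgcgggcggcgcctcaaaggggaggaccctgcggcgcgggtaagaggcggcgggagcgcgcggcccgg

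COL18A1, whose cleaved end is endostatin, was below the limit in all TE13R arrays (13.4, 11.4 and 10.6), against 43.1, 35.8 and 25.5 in TE13, at least 1.69-fold lower, and was not called (adjusted p = 0.16 in limma). COL7A1, the anchoring fibril collagen, had a log2 difference of -0.11 (95% interval -0.44 to 0.22) and was not called. COL13A1, a transmembrane collagen, exceeded the limit on 1 TE13R array and no TE13 array.

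Of the 4 mesenchymal cell proteins, the actin-associated pair was lower in TE13R and the other pair was not called. TAGLN encodes transgelin, which binds actin in smooth muscle and myofibroblasts. It read 119, 328 and 107 in TE13R, against 754, 2844 and 704 in TE13. Every TE13R array lay below every TE13 array, and both lines were highest at 8 h. The log2 difference was -2.70 (SE 0.20, adjusted p = 0.00074 in limma), 6.52-fold. A separate TAGLN probe read 18.6, 119 and 4.0 in TE13R and 164, 727 and 202 in TE13, the same order of lines and the same peak at 8 h.

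ACTA2, smooth muscle actin, read 1019, 706 and 1942 in TE13R and 1673, 1815 and 4220 in TE13. TE13R was lower at each time, but its 24 h value exceeded TE13 at 0 and 8 h. The log2 difference was -1.05 (SE 0.17, adjusted p = 0.0172 in limma). Vimentin (VIM), the intermediate filament of mesenchymal cells, read 18.2, 21.4 and 20.3 in TE13R and 35.2, 39.4 and 38.2 in TE13, all close to the limit. The difference was nearly the same at each time (-0.58, -0.57 and -0.58) and was not called (95% interval -1.22 to 0.07, adjusted p = 0.34 in limma). CDH2, or N-cadherin, did not pass the test either, with 0.09 (95% interval -0.51 to 0.69).

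Among glycoproteins, fibrillins and crosslinking enzymes, only TGFBI was called. TGFBI is a secreted adhesion protein induced by TGF-beta. It read 20126, 12521 and 14321 in TE13R, against 34991, 18572 and 18793 in TE13. TE13R was lower at each time, while its 0 h array exceeded TE13 at 8 and 24 h. The log2 difference was -0.59 (SE 0.13, adjusted p = 0.0473 in limma), close to the threshold. FBN2, a microfibril protein, read 52.3, 17.8 and 26.0 in TE13R and 141, 83.0 and 62.1 in TE13; the lines did not overlap, and the log2 difference of -1.21 did not pass (adjusted p = 0.0524 in limma), but did without the 24 h arrays (-1.38, adjusted p = 0.0408).

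THBS1 and LOX differed between the lines in ways that changed with time. THBS1, thrombospondin 1, read 776, 1552 and 291 in TE13R and 2651, 1447 and 88.1 in TE13. TE13R was the lower line at 0 h (-1.75), close to TE13 at 8 h (0.10) and the higher line at 24 h (1.56), so the fitted difference of -0.03 (95% interval -1.22 to 1.16) is a mean over opposite values. Without the 0 h arrays it was 0.83 (adjusted p = 0.19 in limma). LOX, lysyl oxidase, which crosslinks collagen and elastin, read 734, 458 and 593 in TE13R and 246, 422 and 543 in TE13. The lines were apart at 0 h (1.52) and near each other at 8 h (0.12) and 24 h (0.13), and the gene was not called (adjusted p = 0.36 in limma). With 1 array per line and time, a change of the line difference over time could not be tested.

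Tenascin C (TNC) and fibulin 1 (FBLN1) were not called between the lines, at -0.05 and 0.12 on the log2 scale. The probes of TNC disagreed. The brighter read 69.1, 239 and 193 in TE13R and 78.8, 226 and 203 in TE13, and the other 12.3, 6.0 and -0.4 in TE13R and 49.2, 72.9 and 33.1 in TE13, where the lines did not overlap. Which of them reports the transcript was not tested. FBN1 exceeded the limit on 1 array of each line.

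In the protease system 3 genes were called, 1 protease and 2 inhibitors, all lower in TE13R. MMP10, stromelysin 2, cleaves several matrix proteins and activates other MMPs. It read 35.6, 257 and 83.5 in TE13R, against 82.9, 798 and 178 in TE13. TE13R was lower at each time, and both lines peaked at 8 h, so the ranges overlapped. The log2 difference was -1.16 (SE 0.25, adjusted p = 0.0422 in limma). SERPINE2, protease nexin 1, inhibits thrombin and urokinase. It read 1982, 2412 and 1777 in TE13R, against 6540, 4066 and 3344 in TE13, without overlap, and the log2 difference was -1.12 (SE 0.20, adjusted p = 0.0235 in limma).

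TIMP2, which inhibits MMPs and takes part in the activation of MMP2, read 2996, 1411 and 2138 in TE13R, against 4588, 2854 and 3807 in TE13. The log2 difference was -0.82 (SE 0.15, adjusted p = 0.0231 in limma). Another TIMP2 probe read 249, 447 and 534 in TE13R and 225, 823 and 890 in TE13, so TE13R was lower there at 8 and 24 h but not at 0 h. When the probes of a gene were averaged, TIMP2 was no longer among the called genes. TIMP3 was below the limit in all TE13R arrays, and read 67.2, 2.3 and 151 in TE13, above the limit at 0 and 24 h only. It did not pass the filter on dim probes and was not tested.

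The urokinase pair, PLAU and its receptor PLAUR, both had a log2 difference of -0.45, and neither was called (adjusted p = 0.34 and 0.17 in limma). The 3 probes of PLAUR were lower in TE13R at every time. PLAU was called only without the 0 h arrays (-0.77, adjusted p = 0.011 in limma). MMP14, the membrane protease that activates MMP2, read 21.2, 69.7 and 26.1 in TE13R and 16.7, 108 and 218 in TE13, with log2 differences of 0.18, -0.54 and -2.47 by time and no call (adjusted p = 0.37 in limma). MMP1, MMP2 and MMP9 lay between -0.18 and -0.03 and TIMP1 at -0.36, none called. MMP13 exceeded the limit on 1 array of each line, at 0 h, and was not tested.

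Of the 5 transcription factors, SNAI2 and TWIST1 were measured, and neither was called between the lines. SNAI2, or Slug, read 2146, 1680 and 982 in TE13R, against 6534, 1590 and 1264 in TE13. The gap lay at 0 h (-1.60), with 0.08 at 8 h and -0.36 at 24 h, and a separate probe had -1.41, -0.08 and -0.56. TWIST1 read 265, 712 and 734 in TE13R, against 375, 887 and 1049 in TE13, with log2 differences of -0.48, -0.31 and -0.50 by time and no call (adjusted p = 0.24 in limma).

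Most of the calls between the lines depended on the 8 h arrays. Without the 8 h arrays, COL5A1 (adjusted p = 0.0008) and TAGLN (adjusted p = 0.0151) were still called in limma, and the other 6 were not, with adjusted p between 0.0748 and 0.33. Their log2 differences stayed between -1.33 and -0.59 there (COL16A1 -1.33, SERPINE2 -1.31, MMP10 -0.95, ACTA2 -0.91, TIMP2 -0.72 and TGFBI -0.59), and the calls over all genes fell to 142, against 646 with every array. Without the 0 h arrays all 8 were called together with PLAU, 9 in all, and without the 24 h arrays all 8 were called with COL4A1 and FBN2, 10 in all. A fit without 1 time has fewer arrays to set a gene's own spread, so a call gained there is not added support. Over 12 alternative settings COL5A1 was called in 11 and TAGLN in 9, COL16A1, ACTA2 and SERPINE2 in 7, MMP10 and TIMP2 in 6 and TGFBI in 4. None of the 8 changed its direction in any of them.

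The second question of the design was how these genes moved after irradiation, with the 2 lines as the repeat. At 8 h against 0 h, 11 of the 35 genes (31.4%) were called higher and 5 (14.3%) lower, where 27.5% and 28.8% of all genes tested were called. At 24 h against 0 h, 12 (34.3%) were called higher and 6 (17.1%) lower, where 27.8% of all genes were called in each direction. The share called higher was thus close to that of all genes, and the share called lower was below it. Both contrasts use the same 0 h arrays. From 8 h to 24 h, 2 genes were called higher (COL16A1 and ACTA2) and 3 lower (TAGLN, THBS1 and MMP10), where 7.67% and 5.23% of all genes were.

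**Figure D3:**
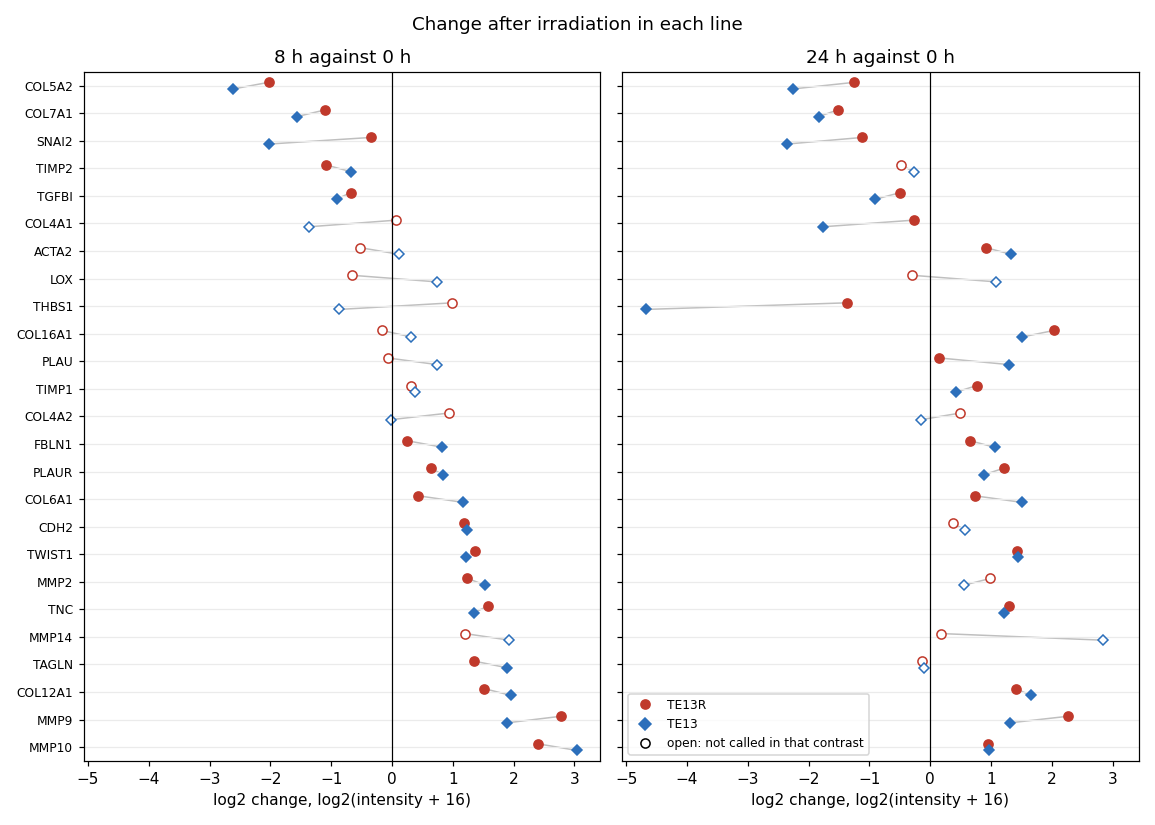
Change in log2(intensity + 16) against 0 h at 8 h (left) and 24 h (right) in TE13R (red circles) and TE13 (blue diamonds) for 25 genes, filled where the contrast over both lines was called. MMP10 had the highest mean change at 8 h (2.72), and THBS1 at 24 h changed by -1.37 in TE13R and by -4.68 in TE13.

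Collagens moved both ways after irradiation. COL7A1 read 9016, 4196 and 3138 at 0, 8 and 24 h in TE13R, and 11636, 3928 and 3263 in TE13, lower in both lines at 8 h (-1.33, adjusted p = 0.00062 in limma) and at 24 h (-1.67, adjusted p = 0.00056). COL5A2 was lower too, with -2.32 at 8 h (adjusted p = 0.0016 in limma) and -1.75 at 24 h (adjusted p = 0.0062). COL12A1 read 63.2, 211 and 194 in TE13R and 50.4, 241 and 192 in TE13, higher at 8 h (1.74, adjusted p = 0.0017 in limma) and at 24 h (1.53, adjusted p = 0.0034). COL16A1 was higher at 24 h (1.77, adjusted p = 0.0046 in limma) and not at 8 h (0.07). COL6A1 was higher at both times, and COL4A1 was called lower at 24 h (-1.02, adjusted p = 0.0418 in limma), with -0.27 in TE13R and -1.76 in TE13.

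MMP10 and MMP9 had the highest mean changes of the tested members at 8 h. MMP10 was higher by 2.72 on the log2 scale at 8 h (SE 0.31, adjusted p = 0.00037 in limma), with 2.40 in TE13R and 3.04 in TE13, and was lower again from 8 h to 24 h (-1.76, adjusted p = 0.0163). MMP9, a gelatinase, read 93.6, 736 and 514 in TE13R and 174, 689 and 454 in TE13, higher at 8 h (2.33, adjusted p = 0.00057 in limma) and at 24 h (1.79, adjusted p = 0.002). MMP2, the other gelatinase, read 34.5, 103 and 84.5 in TE13R and 37.2, 138 and 62.4 in TE13, and was called higher at 8 h only (1.38, adjusted p = 0.0096 in limma). MMP14 was at least 2-fold higher at 8 h in each line without a call (1.56, adjusted p = 0.0526 in limma), but was called without the 24 h arrays (adjusted p = 0.0024). PLAUR was called higher at 8 h (0.74) and 24 h (1.04), PLAU and TIMP1 at 24 h alone (0.72 and 0.59).

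The 250 bases before the start of MMP10 and of PLAUR are printed because these genes were called higher at 8 h and their sequence holds TGANTCA, the site of AP-1 factors. MMP10 spans chr11:102780629-102780878 and PLAUR chr19:43670170-43670419, both on the - strand and from RefSeq (GRCh38.p14). Capitals mark TGANTCA and TATAAA on either strand.
MMP10: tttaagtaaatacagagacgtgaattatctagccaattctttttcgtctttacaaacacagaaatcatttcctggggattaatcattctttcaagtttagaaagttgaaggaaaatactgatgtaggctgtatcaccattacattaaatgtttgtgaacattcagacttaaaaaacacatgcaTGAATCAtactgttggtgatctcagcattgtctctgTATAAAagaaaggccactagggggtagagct
PLAUR: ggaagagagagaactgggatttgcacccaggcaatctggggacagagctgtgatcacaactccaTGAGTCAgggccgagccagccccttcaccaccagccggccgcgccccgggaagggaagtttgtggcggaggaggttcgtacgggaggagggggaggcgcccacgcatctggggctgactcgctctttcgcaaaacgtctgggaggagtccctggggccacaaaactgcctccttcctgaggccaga

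In MMP10 the AP-1 letters begin at -67 and the TATA box at -31 from the start, and in PLAUR the AP-1 letters begin at -186. Promoters were matched for 33 of the 48 genes and for 26 of the 37 measured. Counted by gene, over any of its starts, TGANTCA was in 3 of the 26 (11.5%; MMP10, PLAUR and, at the second of its 2 starts, CDH2) and in 8.06% of all 27305 genes with a promoter of this length. TATAAA was in 6 of the 26 (23.1%) and in 13% of all genes. The CArG box, the site of serum response factor, which drives smooth muscle genes, was searched only as CC, 6 letters of A or T, and GG. It was in 0 of the 26 and in 1.44% of all genes. TAGLN had no promoter to search, and sites that depart from this pattern were not counted in any gene. A match of letters is no evidence of a bound factor.

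TAGLN, TNC and CDH2 rose at 8 h along with them. TAGLN was higher by 1.62 (adjusted p = 0.0011 in limma), and at 24 h differed from 0 h by -0.11 (adjusted p = 0.73). TNC was higher at 8 h (1.47, adjusted p = 0.003 in limma) and 24 h (1.25, adjusted p = 0.0065), but its dimmer probe changed by 0.04 and -0.62, and with the mean of its probes neither change was called (0.75, adjusted p = 0.065, and 0.32, adjusted p = 0.41 in limma). CDH2 read 43.0, 119 and 60.3 in TE13R and 36.1, 107 and 62.2 in TE13, called at 8 h (1.22, adjusted p = 0.0126 in limma) and not at 24 h (0.48). ACTA2 rose at 24 h (1.12, adjusted p = 0.003 in limma), when FBLN1 was also higher (0.86, adjusted p = 0.0063). FBLN1 was called higher at 8 h as well (0.53, adjusted p = 0.0435 in limma), with -0.02 and 0.34 for its other probes above the limit on all arrays.

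Of the markers of other cell types measured, some were higher at 8 h and others were not. PDGFRA, a fibroblast marker, read 101, 269 and 252 in TE13R and 50.3, 294 and 227 in TE13 (1.75 at 8 h, adjusted p = 0.0025 in limma), the endothelial PECAM1 was higher by 1.38 (adjusted p = 0.0177) and the leukocyte CD14 by 1.19 (adjusted p = 0.0305). The endothelial VWF read 940, 62.6 and 313 in TE13R and 44.3, 20.6 and 502 in TE13, with a change of -2.16 at 8 h that was not called (adjusted p = 0.0698 in limma). The fibroblast LUM, not tested, exceeded the limit on the 0 h array of TE13R alone, and PDGFRB, also not tested, on the 24 h array of TE13 alone. CDH5, PTPRC, DCN and THY1 stayed below the limit on all arrays. The part of these markers' changes in the rise of TNC, COL12A1, MMP2 and CDH2 was not tested.

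THBS1 and SNAI2 were called lower at 24 h, though not with no filter on dim probes (adjusted p = 0.13 and 0.11 in limma). Other time calls were lost there too, among them COL5A2, COL16A1 and MMP9 at 24 h and MMP2 and CDH2 at 8 h. THBS1 at 8 h changed by 0.99 in TE13R and -0.87 in TE13, and at 24 h changed by -1.37 in TE13R and -4.68 in TE13 (mean at 24 h -3.02, adjusted p = 0.0048 in limma). SNAI2 at 24 h changed by -1.12 in TE13R and -2.36 in TE13 (mean -1.74, adjusted p = 0.0045 in limma), while TWIST1 changed by 1.42 in TE13R and 1.44 in TE13 (mean 1.43, adjusted p = 0.0012 in limma). At 8 h SNAI2 was already called lower (-1.19, adjusted p = 0.0221 in limma) and TWIST1 higher (1.29, adjusted p = 0.0015). The transcription factors measured therefore moved in opposite directions. TGFBI was lower at 8 h (-0.80, adjusted p = 0.0038 in limma) and at 24 h (-0.69, adjusted p = 0.0076). TIMP2 was called lower at 8 h (-0.88, adjusted p = 0.0039 in limma), but its dimmer probe changed by 1.30, the other way.

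**Figure D4:**
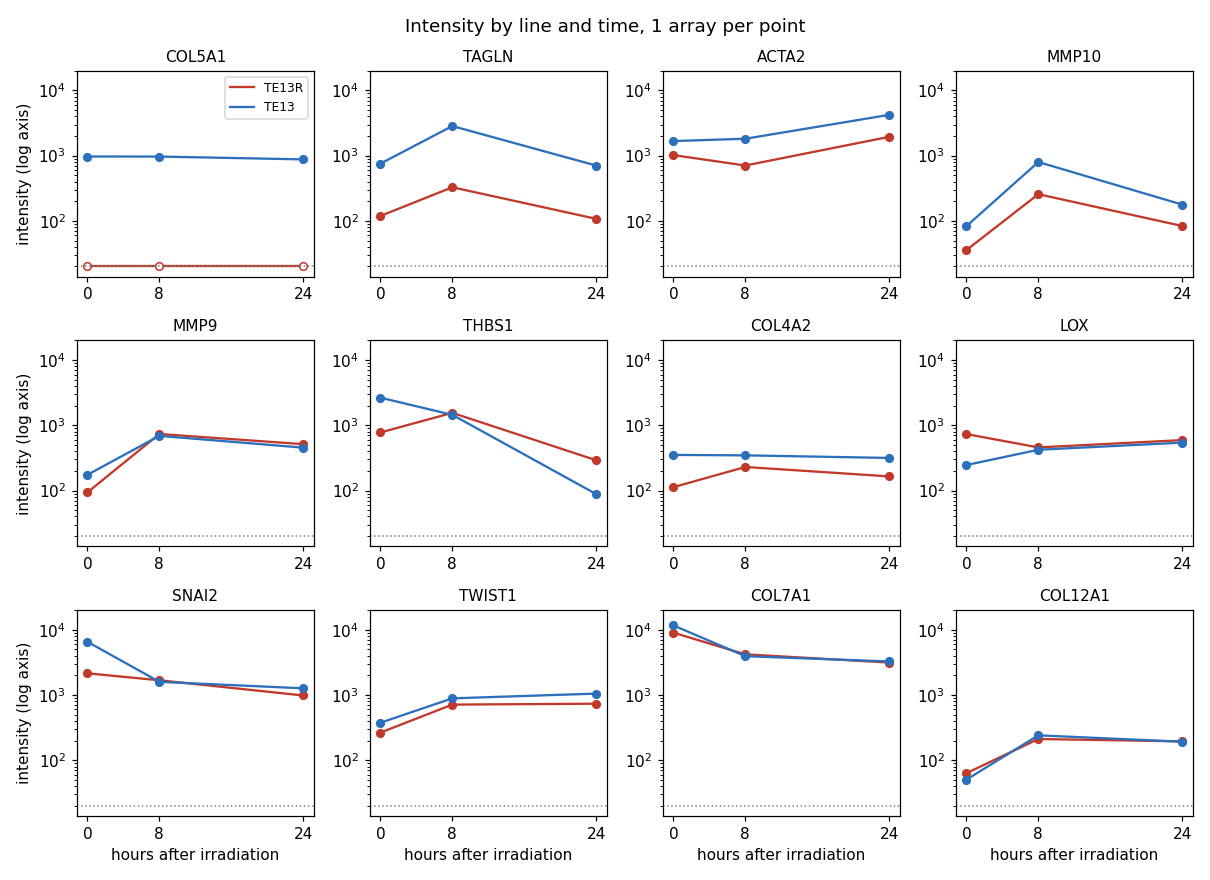
Intensity (log axis) of 12 genes at 0, 8 and 24 h after irradiation in TE13R (red) and TE13 (blue), 1 array per point, with the detection limit dotted and open points at or below it. The lines stay apart for COL5A1 and TAGLN, meet at 8 h for SNAI2 and LOX, and cross for THBS1.

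**Figure D5:**
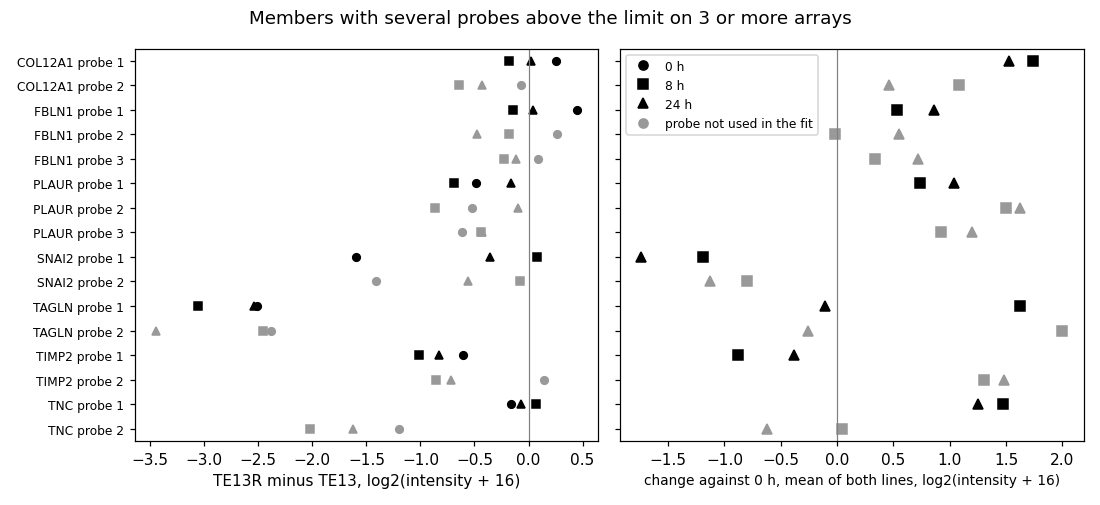
The 7 genes with several probes above the limit on at least 3 arrays (16 probes), as TE13R minus TE13 at each time (left) and as the mean change of both lines at 8 and 24 h against 0 h (right), in log2(intensity + 16), with the probe used in the fit in black. The probes of TAGLN, SNAI2 and PLAUR run together, and those of TIMP2 part over time (-0.88 and 1.30 at 8 h) and those of TNC between the lines.

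Related genes outside the 48 were called between the lines in both directions, and their counts are read against the same 2.45% lower and 2.61% higher of all genes. Among 12 other collagens tested, only COL4A6 was called, lower in TE13R with 280, 119 and 154, against 801, 300 and 436 in TE13 (-1.37, adjusted p = 0.0119 in limma). Of 20 enzymes that fold, modify and process collagen, 3 were called, all higher in TE13R: P3H2, a prolyl 3-hydroxylase (1.18), PCOLCE, which enhances procollagen cleavage (0.96), and PLOD3, a lysyl hydroxylase (0.90). Of 24 other glycoproteins and proteoglycans, EFEMP1, a fibulin, and MATN2, a matrilin, were called higher in TE13R (2.42 and 1.34), and MFAP2, a microfibril protein, and CCN1 lower (-4.06 and -1.57). MFAP2 was below the limit in all TE13R arrays, against 98.5, 326 and 471 in TE13, at least 12.3-fold lower, and it passed the filter on dim probes through the TE13 arrays only. EFEMP1 read 6826, 2021 and 2073 in TE13R and 1413, 375 and 321 in TE13.

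Among 17 other matrix proteases and inhibitors, TIMP4 alone was called, lower in TE13R (-2.20, adjusted p = 0.0483 in limma), and it too passed the filter through the TE13 arrays only, at 2.4, -3.8 and 0.1 in TE13R and 14.5, 67.4 and 163 in TE13. Of 17 epithelial genes and regulators only KRT8, a keratin of simple epithelium, was called, lower in TE13R (-0.91, adjusted p = 0.0499 in limma), and E-cadherin (CDH1) read 4375, 1718 and 1949 in TE13R and 3272, 1732 and 2923 in TE13 (-0.06, adjusted p = 0.92 in limma). None of 13 TGF-beta pathway genes was called by limma, the farthest being PMEPA1, a TGF-beta target, at -2.51 (adjusted p = 0.0511). The medians of these 6 lists lay between -0.16 and 0.16, against -0.45 for the matrix and mesenchymal genes. All of these lists were chosen with earlier results of these data known. Of the 7 squamous markers, KRT14 was called lower in TE13R (-2.09, adjusted p = 0.0038 in limma), and the other 6 lay above 0 without a call, from 0.18 for DSG3 to 0.61 for SFN. The median of the 7 was 0.35, and their part in the results was not tested.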

How the data were processed

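RNA of TE13R and TE13 at 0, 8 and 24 h was read on 6 arrays. The authors collected the data with BeadStudio and deposited 1 column of linear intensities for each array, with background already subtracted and the arrays on 1 scale. Neither the software version nor the normalization method is given in the sources used here. Detection p-values and bead errors were not used here, and the KY170 pair was not analysed here. For arrays, their number limits the precision.

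Of 48803 probes, 27578 had 1 gene symbol, 13 several and 21212 none, and 27541 were found by Entrez identifier in RefSeq (GRCh38.p14), which changed 0 symbols. The brightest probe by mean intensity stood for a gene (15 of the 48 had several, 71 probes in all). The log2 of intensity plus 16 was used, with negative intensities taken as 0. Probes above the array median (upper 50%) on at least 3 arrays were kept, which left 12783 genes, LOXL1 among them although never above the limit. The detection limit was 3 root mean squares of an array's negative values. A bound on a fold sets the mean log2 intensity of TE13 against that of TE13R, in which each array's value is raised to the limit where it is lower. limma 3.58.1 (R 4.3.3; lmFit, eBayes with a mean-variance trend) fitted line and time, with 2 residual and 5.75 prior degrees of freedom and Benjamini-Hochberg adjustment over all genes; time contrasts came from the same fit. An interaction of line with time could not be tested, as no residual degrees of freedom would remain. The fit was tested on simulated data.

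The members, the related lists and the rules were chosen with earlier results of these data known. Values of all arrays are given for members called between the lines, at least 2-fold apart at all times, or changed in 1 direction by at least 2-fold in each line at 8 or 24 h, and for others chosen after their values were seen. From each related list the called genes are named, or the 1 with the largest difference. KRT14, SFN, DSG3, CDH1, PDGFRA, PDGFRB, LUM, PECAM1, VWF and CD14 were named after their values were seen. Alternatives were offsets of 1 and 64, quantile normalization, no filter and a stricter filter, no trend, averaging all probes of a gene, no time point, the methods' t-test and leaving out each time. That t-test is the one the methods name in general for comparing group means. For its arrays the study used an Illumina difference score, which was not computed here.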

Additional observations from a re-analysis of the deposited data

Results flagged for a closer look

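The log2 changes of COL4A2 and LOX after irradiation had opposite signs in the 2 lines at both times, although those of COL4A2 in TE13 were close to 0. For COL4A2 the log2 change against 0 h was 0.93 at 8 h and 0.49 at 24 h in TE13R, and -0.02 at 8 h and -0.15 at 24 h in TE13. For LOX it was -0.66 at 8 h and -0.30 at 24 h in TE13R, and 0.74 at 8 h and 1.09 at 24 h in TE13. Both times share the 0 h array of the line, and 1 array stands for each line and time, so the difference between the lines was not tested.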

How the results depend on the processing

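The count of genes called between TE13R and TE13 was 646, and 8 of the 48. With no filter on dim probes limma called 0 genes of 18665 and 0 of the 48, where 2270 and 15 had an unadjusted p under 0.05, and 10, 6 and 0 of the 48 in the time contrasts (8 h and 24 h against 0 h, and 24 h against 8 h, with 16, 18 and 5 in the fit reported; in the last, 6 had an unadjusted p under 0.05). More and dimmer genes are tested there, and they also enter the variance shared between genes. COL5A1 had adjusted p = 0.22 there in limma, against 0.00013 in the fit reported. What part each of these had in the loss of calls was not tested. Without a mean-variance trend 174 genes and 2 of the 48 were called between the lines, and 2 at 24 h against 8 h. Without the time point in the model 17 and 1 were called, and by the methods' t-test 1 and 1 after Benjamini-Hochberg (517 and 8 unadjusted). Leaving out each time point gave 142 to 850 genes and 2 to 10 of the 48, the fewest without the 8 h arrays. For 24 h against 8 h it gave 8 without the 0 h arrays.

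The direction of 10 uncalled line differences turned. Leaving out each time point gave log2 values of -0.21 to 0.02 for COL7A1, -0.08 to 0.14 for COL12A1, -0.83 to 0.83 for THBS1, -0.11 to 0.00 for TNC, -0.34 to 0.17 for LOXL1, -0.80 to 0.35 for FBN1, -0.05 to 0.25 for FBLN1, -0.24 to 0.06 for MMP1, -0.22 to 0.14 for MMP2 and -0.35 to 0.13 for MMP9. The mean of its probes gave -0.17 for COL12A1, and an offset of 1 gave 0.01 for THBS1. The cause of these changes between settings was not tested. No paired analysis by replicate number was possible because the labels carry none, and the time point is already a block. The number of arrays and, for genes near 20.2, the signal over background limit what could be called.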
